A study of Mus musculus with 11 samples.

Results

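The genes described here are 6 members of the Sox family of transcription factors: Sox4, Sox11 and Sox12 of the SoxC group and Sox1, Sox2 and Sox3 of the SoxB1 group. They were chosen by name, out of 21887 protein-coding genes of the mouse annotation. For each gene, every CUT&RUN peak that touched the gene or the 150 kb on either side of it was taken from each of 6 deposited peak lists. In CUT&RUN an antibody brings a nuclease to a chromatin protein, and the DNA freed around that protein is sequenced. The antibody used here recognises a Myc tag, carried in these cells by RARα, a nuclear receptor for retinoic acid. The cells were Prom1+ neural progenitors, drawn with magnetic beads from the cortex of mouse embryos at E14. Of the 11 libraries in the series, 3 Foxc1 mutant and 3 control libraries made with the Myc-tag antibody were used, and the 5 libraries made with IgG were not analysed here.

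The mutant libraries are labelled Foxc1 Mutant and the others Control; the labels name no allele, strain or sex, no littermates and no pooling of embryos, nor how the tag was put on the receptor. All 6 libraries share the tag, the tissue, the age, the antibody and the bead sort. Peak lists hold no expression values, so neither the Prom1+ identity of the cells nor the progenitor and neuronal roles of the 2 gene groups could be checked in them. Nothing in the labels says that replicates were separate embryos, so the p-values given here measure the spread between these libraries only, which may be technical.

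All Sox proteins bind DNA through an HMG box. The SoxB1 proteins are transcription factors of neural stem and progenitor cells, where they hold back differentiation, and the SoxC proteins are transcription factors that come on as cells leave the cycle and that drive genes of newborn neurons. RARα pairs with an RXR receptor on direct repeats of a short hexamer, and retinoic acid switches the pair from repression to activation. In the embryonic head, the meninges are a source of retinoic acid, and Foxc1 is needed for the meninges to form. The title of the series links meningeal retinoic acid to Notch and Sox2.

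The 6 lists differed in length. They held 54112 to 513290 peaks in the mutant libraries and 11869 to 86446 in the control libraries, and the sources used here do not give the number of reads behind them. Height is given in steps, the smallest unit of max signal in a library, which was worth 0.147 to 1.63 signal units in mutant and 0.0500 to 0.333 in control libraries. The number of peaks in a window was therefore set against the number expected from the density of the same list, and heights were read against other peaks of the same list. Control replicate 2 stood apart with the shortest list. It had no peak in 4 of the 6 windows, where 1.35 to 1.38 were expected, and a count of 0 allows up to 3. For the peak numbers of the 6 genes with 150 kb on both sides, differences between genotypes are given with and without it. Those with 50 kb, with 5 kb or in shortened lists include it and were not fitted without it.

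Peak numbers around the Sox genes broadly followed the length of the list. In the windows the mutant lists held 4 to 10, 28 to 55 and 43 to 77 peaks per gene in replicates 1, 2 and 3, and the control lists held 4 to 16, 0 to 3 and 3 to 5. Windows of the same width laid at random on the genome, 1000 for each gene, had median counts of 6, 48 to 50 and 60 to 62 in mutant replicates 1, 2 and 3 and of 10, 1 and 3 in control replicates 1, 2 and 3. All 36 counts, 6 genes in 6 lists, lay between the 5th and the 95th percentile of those windows. On the gene's own chromosome 35 of 36 did, the exception being Sox3 in mutant replicate 1, with 10 peaks against a 95th percentile of 8. For the windows on the genome, the 5th percentile was 0 in control replicates 2 and 3, so no low count there could fall outside. In mutant replicate 3 it was 1 to 18.8, far below the medians of 60 to 62, so a low count could hardly fall outside there either.

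**Figure D1:**
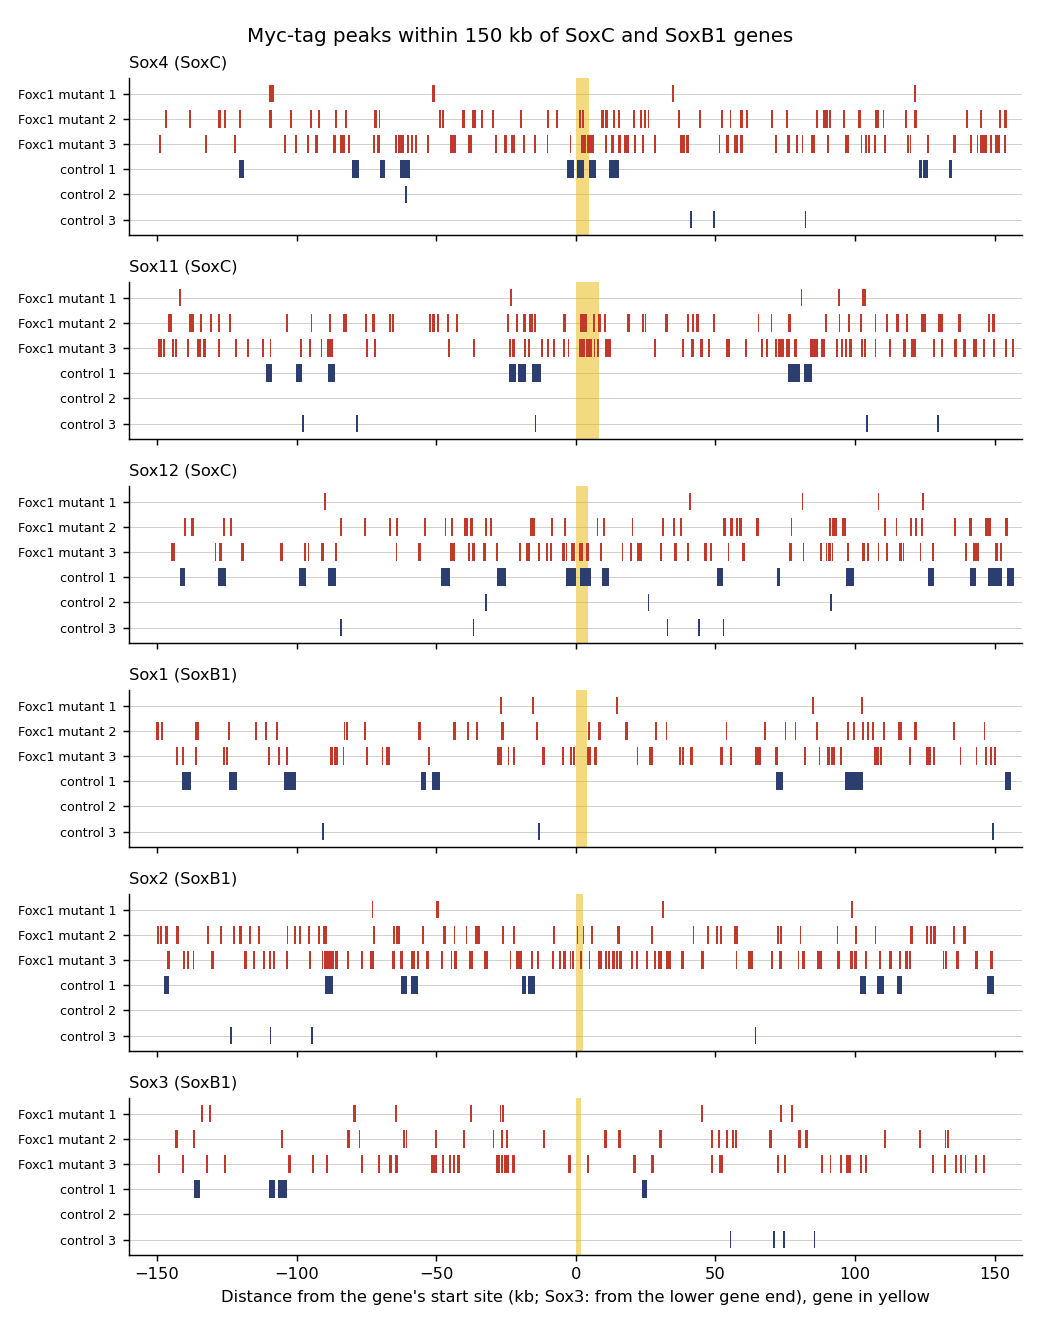
Peaks of each list as boxes along the distance from the gene's start site in kb, with 1 row per library, Foxc1 mutant rows above control rows, and the gene span in yellow. For Sox3, whose strand was not in the sources used, distance runs from the lower gene end. Boxes narrower than 0.6 kb are drawn 0.6 kb wide, heights are not shown, and control replicate 2 has 1 peak at Sox4, 3 at Sox12 and none at the other 4 genes.

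Of all peaks on the 6 genes, a Sox11 peak ranked highest within its own list. Sox11 (gene ID 20666, chr12:27334268-27342718 on the minus strand, mm10) promotes the neuronal program and neuronal survival. Like the other 5 genes it has no intron, so a peak inside its span lies on its sole exon. In mutant replicate 3 the gene held 5 peaks that covered 67.5% of it. In mutant replicate 2 it held 4 peaks that covered 45.0%. There was none on it in mutant replicate 1, nor in control replicates 1, 2 or 3. Of the 4533 coding genes between 2065 and 8451 bp long, the range of the 6 members, 63.5% had a peak on the gene in mutant replicate 3, 55.3% in mutant replicate 2 and 10.6% in mutant replicate 1. In control replicates 1, 2 and 3 the share was 29.3%, 2.21% and 4.24%. A peak on the gene was thus common in the 2 longest lists.

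The Sox11 peaks stood out more by height and spread than by presence. The tallest was 12 steps high and 783 bp wide, with its upstream edge 2570 bp downstream of the start site. Of all peaks in mutant replicate 3, 99.96% were lower. Only 0.265% of genes in the length range had a peak this tall, and 1.04% were covered to the same extent or more. In mutant replicate 2 the tallest peak on the gene had 5 steps, which 21.9% of those genes reached, while 2.49% were covered as much. Thus 3 of the peaks of mutant replicate 3 (12, 8 and 8 steps) rose above the 5 steps of the neighbouring ones, and the peaks of mutant replicate 2 were level.

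Sox4 and Sox12 held peaks on the gene in lists of both genotypes. Sox4 (gene ID 20677, chr13:28948919-28953699, minus strand) acts together with Sox11 in newborn neurons. It had 2 peaks of 7 steps in mutant replicate 3, 2 of 5 steps in mutant replicate 2 and 2 of 13 steps in control replicate 1. They covered 47.5%, 29.6% and 56.1% of the gene. Control replicate 1 had another peak of 13 steps, 2184 bp wide, which began 761 bp upstream of the start site. The region chr13:28950151-28953141, inside Sox4, joined peaks of these 3 lists. Within their own lists, 84.0% of the peaks of control replicate 1 were lower than 13 steps and 93.9% of those of mutant replicate 3 were lower than 7 steps.

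Sox12 (gene ID 20667, chr2:152393611-152398046, minus strand) is the weakest activator of the SoxC group. It had peaks of 5 and 6 steps on the gene in mutant replicate 3, covering 46.1% of it, and a peak of 11 steps in control replicate 1, covering 68.1%. Directly upstream of the start site, mutant replicate 3 had a peak of 8 steps (1698 bp wide, from 144 bp upstream) and control replicate 1 a peak of 7 steps (3387 bp wide, from 74 bp upstream). The peak of mutant replicate 3 was taller than 97.9% of its list and that of control replicate 1 taller than 2.75% of its list. In the list of mutant replicate 2 the nearest peak, of 5 steps, lay 3086 bp past the gene's end, and another of 5 steps 3416 bp upstream of the start site. Mutant replicate 1 and control replicates 2 and 3 had no peak within 5 kb of Sox4, Sox11 or Sox12.

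The SoxB1 genes carried fewer peaks on the gene, all of them on Sox2. Sox2 (gene ID 20674, chr3:34649995-34652461, plus strand), a core factor of neural stem cells, had peaks of 7 and 6 steps touching the gene in mutant replicate 2. In mutant replicate 3 it had 1 peak of 5 steps. The 6-step peak, chr3:34652458-34653111, touched only the last bases of the gene and lay almost wholly downstream of it. The peak of 7 steps, 438 bp wide, began 361 bp downstream of the start site. The 5-step peak of mutant replicate 3 was 482 bp wide and began 1502 bp downstream, at a different place from the 7-step peak. Of its own list, 59.2% of the peaks were lower than 5 steps. The peaks touching the gene covered 17.9% of it in mutant replicate 2 and 19.5% in mutant replicate 3. Peaks as tall were found on 3.60% and 37.3% of the genes in the length range in these lists. Mutant replicate 1 had no Sox2 peak closer than 28514 bp. In control replicates 1 and 3 the nearest peaks lay 14553 and 61660 bp away, and control replicate 2 had none in the window.

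Sox2 lies inside the span of Sox2ot, a long noncoding RNA gene. The region chr3:34559038-34563316, which covers the lower end of Sox2ot, had a 5-step peak in mutant replicate 2, a 7-step peak in mutant replicate 3 and a 12-step peak in control replicate 1. Further inside Sox2ot, chr3:34576409-34578181 was marked in all 3 mutant lists, at 4, 3 and 5 steps for replicates 1, 2 and 3, and in no control list.

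Neither Sox1 nor Sox3 had a peak on the gene in any of the 6 lists. Sox1 (gene ID 20664, chr8:12395519-12399555, plus strand) marks neural progenitors from the earliest neural plate on. Mutant replicate 3 had 5 peaks within 5 kb of it, of 3 to 5 steps, the nearest upstream peak ending 356 bp before the start site. Mutant replicate 2 had 2 peaks there, of 4 and 3 steps, and the other 4 lists none. Sox3 (gene ID 20675, chrX:60891366-60893430), the X-linked gene of the group, had 2 peaks within 5 kb in mutant replicate 3, of 4 and 3 steps, and none in the other 5 lists. With 5 kb on either side, the 4533 genes of the length range had a peak in 26.9%, 85.6% and 87.9% of cases in mutant replicates 1, 2 and 3 and in 51.4%, 5.52% and 13.3% in control replicates 1, 2 and 3. Of the 6 Sox genes 0, 5 and 6 did in mutant replicates 1, 2 and 3 and 2, 0 and 0 in control replicates 1, 2 and 3.

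**Figure D2:**
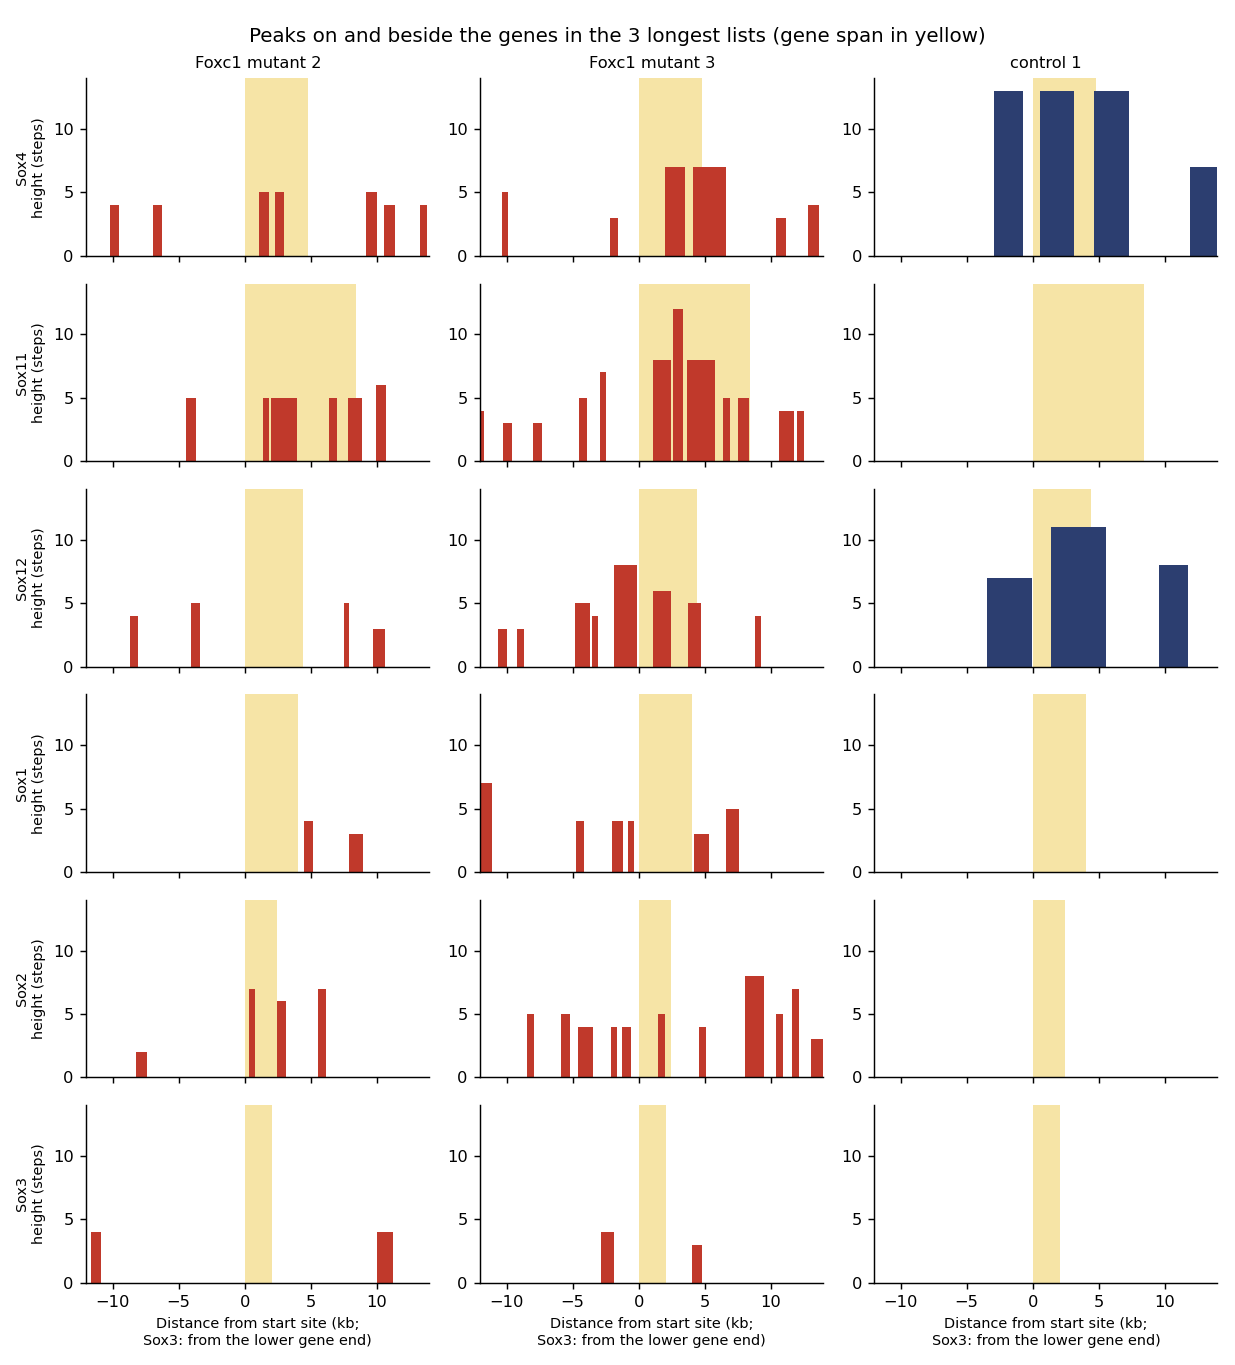
Peaks as boxes, with height in steps against distance from the start site in kb (for Sox3 from the lower gene end), for mutant replicates 2 and 3 and control replicate 1, the gene span in yellow. Steps are worth different signal in each list, so heights compare within a column only: Sox11 reaches 12 steps in mutant replicate 3 and has no peak on it in control replicate 1, where Sox4 reaches 13 and Sox12 11 steps.

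Promoter sequences were available for 5 of the genes, from RefSeq on GRCm38.p6, which shares its coordinates with mm10. Each entry runs from 250 bases before to 50 bases after the start site. Of the 5, the Sox12 entry was the sole one touched by a peak, in mutant replicate 3 and in control replicate 1. Across 17492 coding genes with an entry, 2.03%, 14.5% and 33% were touched in mutant replicates 1, 2 and 3 and 14.2%, 0.2% and 0.292% in control replicates 1, 2 and 3. The 250 bases before the start site are shown for Sox12, because peaks reach it, and for Sox4 and Sox2, because they hold the hexamer AGGTCA. The sequences run 5′ to 3′ on the gene's strand, and capitals mark AGGTCA or its reverse complement TGACCT.
Sox12 (chr2:152398047-152398296, minus strand): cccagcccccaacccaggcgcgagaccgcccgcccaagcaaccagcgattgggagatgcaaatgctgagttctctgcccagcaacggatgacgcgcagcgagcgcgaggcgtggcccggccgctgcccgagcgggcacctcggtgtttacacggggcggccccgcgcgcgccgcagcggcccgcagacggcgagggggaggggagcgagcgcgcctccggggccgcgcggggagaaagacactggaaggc
Sox4 (chr13:28953700-28953949, minus strand): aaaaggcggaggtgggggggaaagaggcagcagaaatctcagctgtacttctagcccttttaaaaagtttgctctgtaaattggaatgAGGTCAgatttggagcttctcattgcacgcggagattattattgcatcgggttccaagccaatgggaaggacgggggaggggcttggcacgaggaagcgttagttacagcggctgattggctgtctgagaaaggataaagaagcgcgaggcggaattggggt
Sox2 (chr3:34649745-34649994, plus strand): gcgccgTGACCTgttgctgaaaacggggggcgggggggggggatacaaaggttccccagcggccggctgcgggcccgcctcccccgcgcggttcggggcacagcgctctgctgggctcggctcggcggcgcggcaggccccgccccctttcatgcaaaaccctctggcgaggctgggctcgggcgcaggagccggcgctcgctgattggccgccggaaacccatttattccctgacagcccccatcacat
The hexamer AGGTCA was searched on both strands, as were its variants with the letters GGGTCA or with the letters AGTTCA, and direct repeats of AGGTCA spaced by 1, 2 or 5 bases. Counted from the start site, Sox4 has AGGTCA at position −162 and Sox2 has TGACCT at position −244. Sox1 has the reverse complement of GGGTCA, and these letters were not found in Sox11 or Sox12. AGGTCA occurs in 12.6% of the 17492 promoters, GGGTCA in 11.3% and AGTTCA in 10.9%, and the 3 direct repeats in 8, 0 and 1 promoters. None of the 5 Sox promoters holds a repeat. The Sox4 and Sox2 matches were not covered by a peak in any list.

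Set side by side, the SoxC windows held more peaks than the SoxB1 windows in 5 of 6 lists. Summed over 3 genes, the SoxC windows had 14, 152 and 199 peaks in mutant replicates 1, 2 and 3, and the SoxB1 windows 19, 114 and 170. In control replicates 1, 2 and 3 the SoxC windows had 35, 4 and 13 peaks and the SoxB1 windows 22, 0 and 11. As ratios to the expected number, SoxC stood at 0.750, 1.07 and 1.12 and SoxB1 at 1.03, 0.813 and 0.970 in mutant replicates 1, 2 and 3. In control replicates 1, 2 and 3 SoxC stood at 1.17, 0.977 and 1.25 and SoxB1 at 0.745, 0 and 1.06. Mutant replicate 1 was the list in which SoxC was lower.

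On the log2 scale, with 0.5 added to the observed and the expected number, SoxC minus SoxB1 was −0.44, 0.40 and 0.21 in mutant replicates 1, 2 and 3. It was 0.64 and 0.22 in control replicates 1 and 3. Over the 5 lists without control replicate 2 its mean was 0.21. With the 0 of control replicate 2, whose value depends on the 0.5 added, the mean was 0.70. Without the X-linked Sox3, SoxC was higher in 6 of 6 lists, by 0.03 and 0.05 in mutant replicates 1 and 3. Against the density of each gene's own chromosome it was higher in 5. By covered length, in lists cut to equal length and with peaks of at least 4 steps, SoxC was higher in 4 of 6 lists each. Within 5 kb of the genes it was higher in mutant replicates 2 and 3 and control replicate 1. The other lists had no peak there in either group, so the order of the groups in them came from the 0.5 added. The X chromosome held 12.6, 95.5 and 120.3 peaks per Mb in mutant replicates 1, 2 and 3, against 20.3, 154.3 and 192.9 in all. In control replicates 1, 2 and 3 it held 11.5, 4.31 and 17.5, against 32.5, 4.46 and 11.4 in all. No test was made of sums over these genes, and the part of chromosome density in the order of the 2 groups was not tested.

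**Figure D3:**
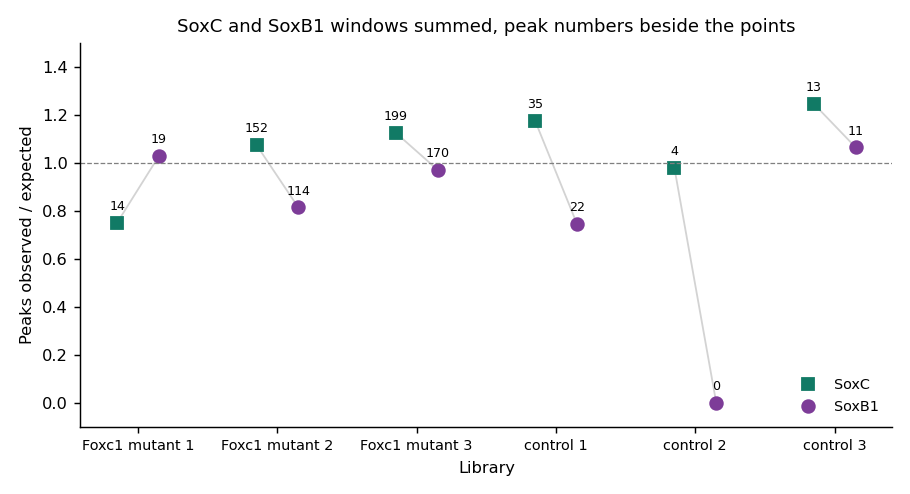
Peaks in the SoxC (square) and SoxB1 (circle) windows, summed over 3 genes each and divided by the number expected from the list, for each library. The number beside a point is the number of peaks; SoxC is above SoxB1 in all libraries but Foxc1 mutant 1.

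On the gene itself, the SoxC genes held more peaks per 10 kb than the SoxB1 genes in the 3 lists with a peak on any member. SoxC genes held 3.40 and 5.09 peaks per 10 kb of gene in mutant replicates 2 and 3 and 1.70 in control replicate 1, and SoxB1 genes held 2.33, 1.17 and 0. The other coding genes of the length range held 1.62, 2.12 and 0.650. From 5 to 25 kb away, SoxC windows had 23, 31 and 6 peaks and SoxB1 windows 11, 24 and 3 in these lists. In mutant replicate 2 the ratio was larger there than on the gene, if the peak that only touches the end of Sox2 is counted. Within 5 kb outside the gene the order turned in mutant replicate 3, with 9 peaks at SoxC and 11 at SoxB1 genes. From 75 to 150 kb away, SoxC windows had 1.51, 2.18 and 0.378 and SoxB1 windows 1.31, 1.87 and 0.311 peaks per 10 kb in these lists, and windows of the other genes 1.38, 1.57 and 0.354. The counts on the genes are small, with 6, 9 and 3 peaks on SoxC genes against 2, 1 and 0 on SoxB1 genes, and 4 of the 6 and 5 of the 9 SoxC peaks in mutant replicates 2 and 3 were on Sox11.

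**Figure D4:**
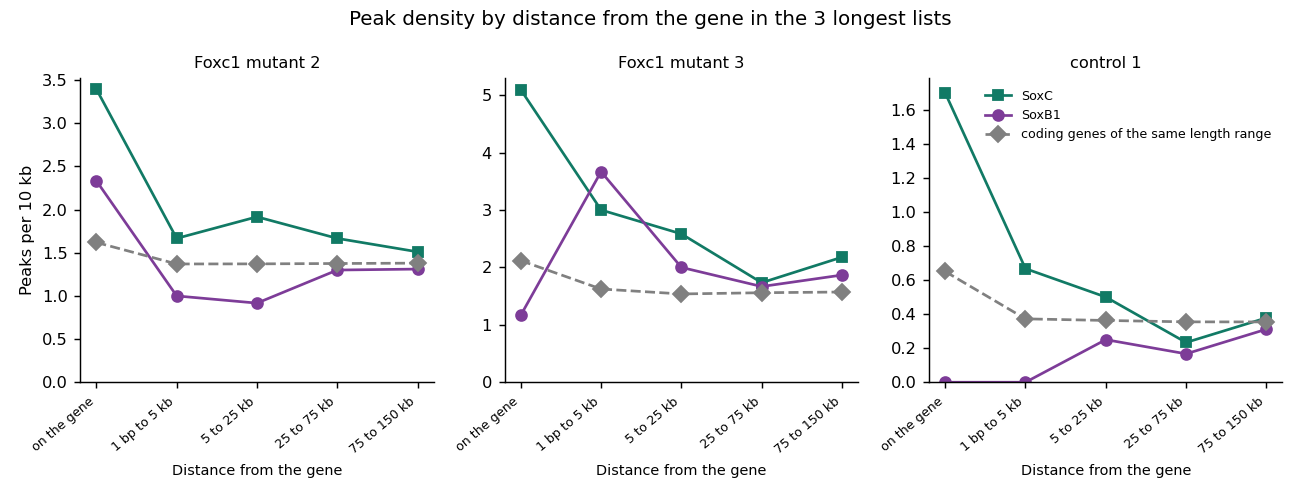
Peaks per 10 kb by distance from the gene, for 3 SoxC genes, 3 SoxB1 genes and other coding genes of the same length range, in mutant replicates 2 and 3 and control replicate 1. The vertical scales differ; SoxC is highest on the gene in each list, at 3.40, 5.09 and 1.70, while the grey line for other genes stands at 1.62, 2.12 and 0.650 there.

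Between genotypes, Sox12 was the member whose groups did not overlap with 150 kb on both sides. It had 5, 43 and 57 peaks in mutant replicates 1, 2 and 3, where 6.19, 46.96 and 58.7 were expected. It had 16, 3 and 5 in control replicates 1, 2 and 3, where 9.89, 1.36 and 3.46 were expected. Each mutant list was thus below and each control list above its own density. Log2 observed over expected averaged −0.15 ± 0.12 in mutant and 0.68 ± 0.22 in control libraries (SD, n = 3 each), a difference of −0.83 ± 0.30 (SE). In limma's test over 21887 genes this had an unadjusted p of 0.0164 and a Benjamini-Hochberg adjusted p of 0.851, and the exact permutation test gave the smallest p that 3 against 3 can give, 0.1. The difference was −0.72 when control replicate 2 was left out. Without overlap, and with mutant libraries lower, were 6.26% of all genes, and with mutant libraries higher 4.59%, beside 1 of 6 Sox genes. The Sox12 window is rich in genes, with 13 other protein-coding genes, against 1 at Sox1 and none at the other 4.

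The other 5 genes had overlapping groups. The mutant minus control difference in log2 observed over expected was 0.66 ± 0.59 for Sox11 and 0.06 ± 0.38 for Sox4. It was 0.49 ± 0.62 for Sox1, 0.53 ± 0.60 for Sox2 and 0.80 ± 0.69 for Sox3 (SE). The adjusted p of limma was 0.851 to 0.980 for these 5. Without control replicate 2 the differences were −0.0013 for Sox11, −0.038 for Sox4, −0.063 for Sox1 and −0.13 for Sox2, all below 0. That of Sox3 was 0.34 without this library and 1.03 with control replicate 1 as the sole control, which stood at −1.20 for Sox3. Over all genes, 53.2% had a difference above 0, with a median of 0.04. With limma 0% of the 21887 genes passed an adjusted p of 0.05 in either direction (0 genes higher and 0 lower). An unadjusted p under 0.05 was reached by 888 genes (4.06%), and the exact permutation test, whose smallest p is 0.1, called none.

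**Figure D5:**
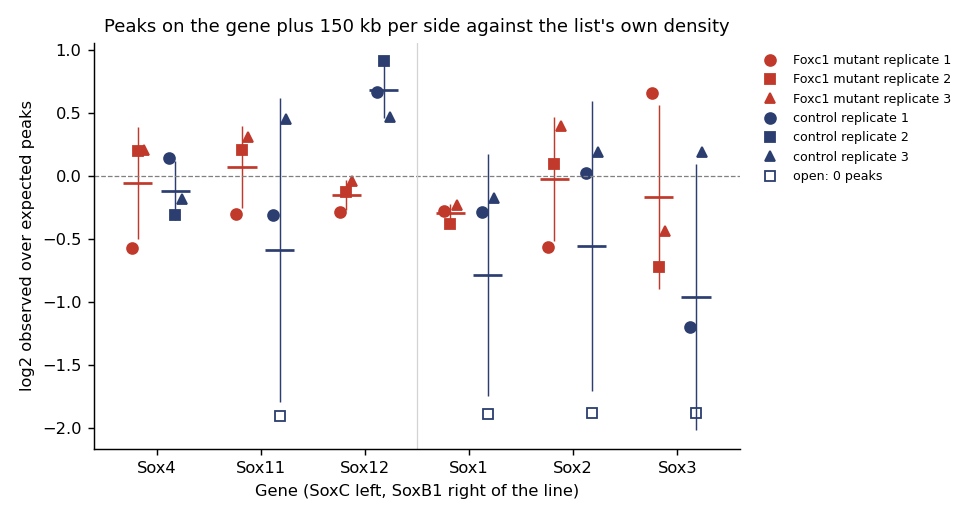
Log2 of observed over expected peaks on the gene and 150 kb per side, with 0.5 added to both, for each Foxc1 mutant (red, left) and control (blue, right) library; bars are means and lines SD (n = 3). Open symbols mark windows with 0 peaks, and the groups do not overlap for Sox12 alone.

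Ordered by the mean over 6 lists, log2 observed over expected ran from Sox12 (0.27 ± 0.48) through Sox4 (−0.09 ± 0.32), Sox11 (−0.26 ± 0.87), Sox2 (−0.29 ± 0.85) and Sox1 (−0.54 ± 0.67) to Sox3 (−0.56 ± 0.92, SD, n = 6). Sox12 and Sox4 differed by more than the SD of Sox4 and less than that of Sox12, and the other neighbours by less than either SD. The order depended on genotype: by mutant means it was Sox11 (0.07), Sox2 (−0.02), Sox4 (−0.06), Sox12 (−0.15), Sox3 (−0.17) and Sox1 (−0.30), with Sox12 first through its control lists. Over both genotypes without control replicate 2, Sox12 (0.14), Sox11 (0.07) and Sox2 (0.03) stood above Sox4 (−0.04), Sox1 (−0.27) and Sox3 (−0.30).

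The tallest peak in each window was mostly near the height that random windows gave. In steps it was 6, 9 and 12 for Sox11 in mutant replicates 1, 2 and 3 and 10 and 3 in control replicates 1 and 3. Random windows had medians of 5, 7 and 8 steps in the mutant lists and of 14 and 3 in these control lists. Sox11 was above the 95th percentile of 11 steps in mutant replicate 3 and below the 5th percentile of 11 steps in control replicate 1. Of the 32 tallest peaks, over all genes and lists with a peak, the other 30 lay between these percentiles. In control replicates 2 and 3 the 5th percentile was 2 steps, the lowest height in these lists, so no peak could fall below it. Sox4 had 6, 8 and 8 steps in mutant replicates 1, 2 and 3 and 17, 2 and 4 in control replicates 1, 2 and 3. Its 17-step peak, at chr13:28818830-28819916, lay 133783 bp downstream of the start site inside the noncoding gene 2610307P16Rik. Sox12 had 6, 6 and 8 steps in mutant replicates 1, 2 and 3 and 12, 3 and 2 in control replicates 1, 2 and 3.

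For the SoxB1 genes the tallest peaks had 4, 8 and 7 steps (Sox1), 4, 8 and 8 steps (Sox2) and 6, 6 and 8 steps (Sox3) in mutant replicates 1, 2 and 3. In control replicates 1 and 3 they had 13 and 3 (Sox1), 12 and 2 (Sox2) and 15 and 3 steps (Sox3). After centring log2 max signal on each library's median gene, the mutant minus control difference was −0.08 ± 0.20 for Sox4 and 0.09 ± 0.30 for Sox12 (SE, limma adjusted p = 0.992 for both). This fit held 15207 genes with a peak in all 6 lists, which leaves out Sox1, Sox2, Sox3 and Sox11. It called 0% of the genes in either direction, and 430 (2.83%) had an unadjusted p under 0.05. Groups did not overlap in 2.49% of the genes with mutant libraries higher and 2.81% with mutant libraries lower, and they overlapped for Sox4 and Sox12. Without control replicate 2, with 3 mutant and 2 control libraries, all 6 genes could be fitted. Sox11 then differed by 0.65 ± 0.22 (SE), with an unadjusted p of 0.0207 and an adjusted p of 0.778 in limma. In this fit 980 of 20309 genes had an unadjusted p under 0.05, and 0 passed the adjusted p. The other 5 ranged from −0.20 for Sox4 to 0.42 for Sox12, with unadjusted p of 0.110 to 0.863.

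In lists cut to the 11869 peaks of highest total signal, Sox11 had 1, 4 and 4 peaks in its window in mutant replicates 1, 2 and 3 and 0, 0 and 1 in control replicates 1, 2 and 3. The groups met at 1 peak. The difference was 2.11 ± 0.73 (SE, unadjusted p = 0.0275, adjusted p = 0.679, limma). Sox12 had 1, 1 and 1 peaks in mutant and 3, 3 and 2 in control lists of this length, a difference of −1.06 ± 0.31 (SE, unadjusted p = 0.0137, adjusted p = 0.595, limma). Each of these lists was expected to hold 1.38 peaks at Sox11 and 1.36 at Sox12. An unadjusted p under 0.05 was reached by 1187 of 21887 genes in this limma fit. The share of all genes whose groups separate was not worked out for lists of this length. With 50 kb, as with 150 kb, the direction by genotype differed between Sox12 and the SoxB1 genes Sox2 and Sox3. With 5 kb Sox12 stood at −0.20, Sox3 at −0.55 and Sox2 at 0.74. Within 50 kb, Sox12 had 1, 16 and 26 peaks in mutant replicates 1, 2 and 3, with 2.12, 16.1 and 20.1 expected, and 6, 2 and 4 in control replicates 1, 2 and 3, with 3.39, 0.466 and 1.19 expected. That difference was −1.33 ± 0.44 (SE, unadjusted p = 0.00403, adjusted p = 0.706, limma). Sox2 and Sox3 also had groups without overlap within 50 kb, with mutant lists higher. Sox2 had 2, 16 and 30 peaks in mutant replicates 1, 2 and 3, with 2.08, 15.8 and 19.8 expected. It had 2, 0 and 0 in control replicates 1, 2 and 3, with 3.33, 0.457 and 1.17 expected. The difference for Sox2 was 1.28 ± 0.67 (SE, unadjusted p = 0.0637, adjusted p = 0.706, limma). Sox3 had 4, 11 and 16 peaks in mutant replicates 1, 2 and 3, with 2.08, 15.7 and 19.7 expected. It had 1, 0 and 0 in control replicates 1, 2 and 3, with 3.32, 0.455 and 1.16 expected. The difference for Sox3 was 1.34 ± 0.73 (SE, unadjusted p = 0.0728, adjusted p = 0.708, limma). Of all genes, 5.75% had groups without overlap and mutant lists higher within 50 kb, and 5.33% mutant lists lower. An unadjusted p under 0.05 was reached by 1190 of 21887 genes in the limma fit within 50 kb.

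Summed within 50 kb, the SoxB1 genes had 9, 38 and 61 peaks in mutant replicates 1, 2 and 3, where 6.27, 47.6 and 59.5 were expected, and 4, 0 and 1 in control replicates 1, 2 and 3, where 10.02, 1.38 and 3.51 were expected. Their log2 observed over expected was 0.07 ± 0.41 in mutant and −1.52 ± 0.35 in control libraries (SD, n = 3 each), a difference of 1.58, and the groups did not overlap. The SoxC genes had 3, 60 and 74 peaks in mutant replicates 1, 2 and 3, where 6.46, 49.0 and 61.3 were expected. In control replicates 1, 2 and 3 they had 13, 2 and 7, where 10.3, 1.42 and 3.61 were expected. Their log2 observed over expected was −0.14 ± 0.73 in mutant and 0.52 ± 0.30 in control libraries, a difference of −0.67. The groups again did not overlap, though mutant replicate 2 at 0.289 lay next to control replicate 1 at 0.319. Of the SoxC genes, Sox12 alone was lower in mutant libraries (−1.33). Sox4 was at 0.016 and Sox11 at 0.37, both with overlapping groups. With 150 kb and with 5 kb on both sides, the summed groups of both SoxB1 and SoxC overlapped. Such sums were not set against sums of other genes. The control counts of the SoxB1 genes are 4 peaks or fewer.

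Few places in the windows were marked in several lists. Merging the 6 lists gave 564 regions in the 6 windows, of which 433 (76.8%) came from a single list, against 74.1% of 805693 regions in the genome. Regions of 4 or more lists numbered 2, both upstream of Sox11. At chr12:27355212-27359800, 12494 bp upstream, peaks had 4 and 4 steps in mutant replicates 2 and 3 and 9 and 2 steps in control replicates 1 and 3. At chr12:27364269-27367387, 21551 bp upstream, they had 4, 3 and 7 steps in mutant replicates 1, 2 and 3 and 10 steps in control replicate 1. Of all gene windows 40.3% held at least 1 such region, and of the Sox windows 1 of 6 did.

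Regions of every mutant and no control list numbered 1 each at Sox1, Sox2, Sox3 and Sox12 and 0 at Sox4 and Sox11. Besides the region in Sox2ot these were chr8:12367368-12369962 (3, 8 and 4 steps in mutant replicates 1, 2 and 3), chrX:60862812-60865673 (5, 3 and 3 steps) and chr2:152273442-152274910 (6, 3 and 3 steps), the last inside Csnk2a1, a kinase subunit gene. At least 1 region of this kind was found in 43.8% of all gene windows. Of the 266 peaks of mutant replicate 2 in the 6 windows, 32.7% touched a peak of mutant replicate 3, against 34.9% in the whole list. Of the 57 peaks of control replicate 1, 63.2% touched a peak of mutant replicate 3 and 43.9% one of mutant replicate 2, against 57.1% and 49.1% in the whole list.

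None of the other 13 Sox genes reached an unadjusted p of 0.05 in peak number with all 6 lists. Their differences ran from −0.09 to 0.80 with a median of 0.29, and 10 of 13 were above 0, against 53.2% of all genes. Without control replicate 2, 8 of 13 were above 0, against 45.1% of all genes, with a median of 0.07, and Sox10 had an unadjusted p of 0.0317 (difference −0.99, limma adjusted p = 0.808). With all lists, 2 of 13, Sox14 and Sox30, had groups without overlap and mutant lists higher, as had 4.59% of all genes. Sox14, of the SoxB2 group, stood at 0.18, −0.25 and −0.11 in mutant replicates 1, 2 and 3 and at −0.91, −0.30 and −1.39 in control replicates 1, 2 and 3 (log2 observed over expected). Of 6 partners or targets of SoxB1 proteins, 6 had a difference above 0 with and without control replicate 2, against 53.2% and 45.1% of all genes. Their median was 0.75, and 0.33 without that library. Of these, Fabp7, a fatty acid binding protein of radial glia, and Chd7, a chromatin remodeller that binds Sox2, had groups without overlap, mutant lists higher, as had 4.59% of all genes. For Chd7 the nearest values were 0.005 in mutant replicate 2 and −0.048 in control replicate 1. The 4 targets of SoxC proteins, Tubb3, Dcx, Tead2 and Stmn2, ran from −0.28 to 0.44, with 2 above 0, and 1 above 0 without control replicate 2. No gene of these lists passed the adjusted p.

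With control replicate 2 included, the genes whose 6 values of log2 observed over expected were closest to a member's, among those with a separate window, were Chodl and Ppp1r3a for Sox11 (root mean square difference 0.10 and 0.12 over 6 libraries), Star and Olfr559 for Sox4 (0.06 and 0.06) and Tor3a and Ntan1 for Sox12 (0.08 and 0.10). They were Msl2 and Dll1, a Notch ligand, for Sox2 (0.10 and 0.12), Pnma1 and Mcpt1 for Sox1 (0.05 and 0.09) and Tmsb4x and Plxna1 for Sox3 (0.08 and 0.20). These are the nearest of the genes compared, 21862 or more per member, and share the libraries with the members.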

How the data were processed

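The members and gene lists were chosen with earlier results of these data known. Peaks come from SEACR on mm10, per the submitters' processing notes. The sources used here do not give versions, settings, aligner, scaling or the use of IgG libraries. Each deposited list gives a total signal and a max signal per peak, the authors' values, from peaks called per library. Depth per library is unknown. Max signals under 100 steps were whole multiples of 1 step within 0.01. Other contigs than the autosomes and sex chromosomes were left out.

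Peaks touching a gene plus 150 kb by 1 bp were counted for 21887 RefSeq coding genes (GRCm38.p6). Log2((observed + 0.5)/(expected + 0.5)) and the log2 max signal of the tallest peak, centred per library on the median gene, were tested with limma 3.58.1 with a trend (R 4.3.3) and Benjamini-Hochberg adjustment over all genes, called under 0.05. The fits were run on simulated data with large changes set in and no spread between simulated counts beyond counting noise. Those runs do not show how the fits do with smaller changes or with the spread of these libraries. Neighbouring windows overlap, so genes are not independent. Sequences came from RefSeq promoters. Python 3.11.15 with numpy 2.4.6 and pandas 2.3.3 did the rest. The rule for named genes took the 6 members, listed genes, holders of tallest peaks and, per member, the 2 genes nearest in pattern. Alternatives were other windows, list lengths, height limits, overlaps, pseudocounts, scalings and tests, leaving out libraries and a replicate block. Density per chromosome, control replicate 1 as sole control, sums without Sox3 or Sox12, gene lists without control replicate 2 and the share of genes whose groups separate at 50 kb were added after seeing the data.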

Additional observations from a re-analysis of the deposited data

How the results depend on the processing

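For Sox12 the lower peak number in mutant libraries kept its direction under the 19 alternatives run, from −1.33 to −0.16, and none passed the adjusted p (0.221 or more). Read numbers are unknown, and small control counts limit every difference. The count of genes with a changed peak number was 4 with 5 kb on both sides (Gngt2, Zfp985, Mup5 and Zfp981, named after their values were seen) and 3 with the replicate block (Prl2c3, Zfp982 and Zfp985), against 0. Whether the replicate numbers pair the libraries is not known. Deviations from the group means correlated at −0.17, −0.09 and −0.04 between same-numbered libraries, and no library correlated best with its own number. With 3 libraries per group these deviations are tied to each other, so they cannot show that a pairing is absent. The block changed no call of a Sox gene. The mutant minus control difference of the summed SoxC windows, −0.21, was −0.67 with 50 kb, 0.26 with equal-length lists and 0.34 without Sox12. That of the SoxB1 windows was 1.07, and 0.06 to 1.70 when a library was left out, against −0.32 to −0.03 for SoxC, and SoxC minus SoxB1 over all lists was 0.70, and 0.21 to 0.93. Directions turned as follows in peak number, and the cause was not tested. With 5 kb Sox3 was at −0.55 and Sox4 at −0.51. With equal-length lists Sox1 was at −0.16, Sox3 at −0.28 and Sox4 at −0.25. With peaks of at least 4 steps Sox1 was at −0.21 and Sox4 at −0.28. With own-chromosome density Sox4 was at −0.0089. With control replicate 1 as sole control Sox1 was at −0.0076, Sox2 at −0.047 and Sox4 at −0.20. Leaving out 1 library gave −0.063 to 0.79 for Sox1, −0.13 to 0.91 for Sox2, 0.34 to 1.37 for Sox3, −0.0013 to 1.18 for Sox11 and −0.073 to 0.32 for Sox4. For the highest peak, Sox12 was at −0.37 with 50 kb and −0.037 with equal-length lists, and −0.17 to 0.42 when 1 library was left out. Sox4 was at 0.0053 with total signal, 0.50 in steps without centring and −0.20 to 0.012 when 1 library was left out. No gene passed in the highest peak under any of its 16 alternatives. The highest peak had no value where a list lacked a peak, for Sox4 and Sox12 with 5 kb and with peaks of at least 4 steps, and for Sox4 also with 50 kb and with equal-length lists.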
